A study of Mus musculus with 30 samples.

Results

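The expression of 8 genes of antimicrobial defence and neutrophils, Reg3g, Reg3b, S100a8, S100a9, Lcn2, Ltf, Camp and Saa3, was described in the whole eye and in a hypothalamic block of wild-type (WT) mice and of mice lacking the clock gene Per3. They are 8 of the 27761 gene names on the array, and 9 of its 41174 probes, since Ltf has 2 probes. The 8 were selected on their signal in the eye arrays, which earlier results of these data had shown to differ from eye to eye, so their eye values, eye differences between genotypes and covariation are given as a description with no test. The same holds for the difference between eye and hypothalamus. The genotypes were tested in the hypothalamus, over all probes.

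All mice were male adults on a C57Bl/6J background, and WT mice were litter mates of the Per3-/- mice. In the Per3-/- line a PGK-NEO cassette stands in place of exon 3 and the intron after it. Every mouse, WT or Per3-/-, went through 17 ultradian cycles of 3.5 h light and 3.5 h dark and was killed in the second hour of the last light phase, so no group without this light protocol was measured. Whole eyes of 7 WT and 7 Per3-/- mice and hypothalamic blocks of 8 WT and 8 Per3-/- mice were hybridised, each on an array of its own with 60-base probes and a single dye, and 14 mice gave both tissues.

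Neutrophils carry S100a8 and S100a9, which pair to form calprotectin, a protein that withholds zinc and manganese from microbes, and they store lactoferrin (Ltf), lipocalin-2 (Lcn2) and cathelicidin (Camp) in their granules. Epithelia make several of the same proteins, and the lacrimal gland and the surface of the eye secrete lactoferrin and lipocalin-2 into tears. Reg3g and Reg3b are secreted C-type lectins known best from the gut lining, where they bind bacteria, and Saa3 is an acute-phase protein that is made outside the liver.

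The probes are shown where they lie in coding sequence, since a value below stands for that stretch of a transcript alone. The sequences and positions are those of the array annotation in the hypothalamus files (assembly mm9), which give no exon.
S100a8, chr3:90473778-90473837, plus strand: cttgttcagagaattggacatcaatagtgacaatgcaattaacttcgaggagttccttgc
Lcn2, chr2:32241037-32241281, minus strand: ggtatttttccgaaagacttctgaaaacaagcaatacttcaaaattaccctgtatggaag
Ltf, reported probe, chr9:110942873-110942932, plus strand: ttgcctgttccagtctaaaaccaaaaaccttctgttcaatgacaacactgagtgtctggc
Ltf, other probe, chr9:110938264-110941314, plus strand: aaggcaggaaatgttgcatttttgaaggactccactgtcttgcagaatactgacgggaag
Camp, chr9:109749992-109750051, minus strand: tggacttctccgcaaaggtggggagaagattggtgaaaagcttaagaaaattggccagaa
Saa3, chr7:53968031-53968090, minus strand: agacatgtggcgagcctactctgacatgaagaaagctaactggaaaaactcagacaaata
The Lcn2 probe spans 245 bases of the genome and the second Ltf probe 3051, so both cross an intron. The Camp probe lies in the stretch that encodes the mature antimicrobial peptide. The Saa3 probe also lists an accession of Saa1, a closely related acute-phase gene, so its signal may come from both. The probes of Reg3g (chr6:78416420-78416479, minus strand), Reg3b (chr6:78323323-78323382, plus strand) and S100a9 (chr3:90496585-90496644, minus strand) are 60 bases each and are given by position only.

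The promoters of 2 gene pairs are shown because the members of each pair are close relatives: Reg3g and Reg3b, whose levels in the eye were far apart in detection, and S100a8 and S100a9, whose levels ran together. Each is the 250 bases before the transcript start in RefSeq on GRCm38.p6, and all 8 genes had an entry. Capitals mark matches, on either strand, to TATAAA (the TATA box), TTGCNNAA (C/EBP) or TTCNNNGAA (STAT). AP-1 (TGANTCA) and the E-box (CACGTG) were searched as well, and no match of 1 motif overlapped one of another.
Reg3g, chr6:78468875-78469124, minus strand: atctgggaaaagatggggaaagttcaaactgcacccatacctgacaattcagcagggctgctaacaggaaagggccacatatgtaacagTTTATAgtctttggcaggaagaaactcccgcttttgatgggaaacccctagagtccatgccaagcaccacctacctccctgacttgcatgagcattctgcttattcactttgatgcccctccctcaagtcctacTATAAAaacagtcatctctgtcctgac
Reg3b, chr6:78370635-78370884, plus strand: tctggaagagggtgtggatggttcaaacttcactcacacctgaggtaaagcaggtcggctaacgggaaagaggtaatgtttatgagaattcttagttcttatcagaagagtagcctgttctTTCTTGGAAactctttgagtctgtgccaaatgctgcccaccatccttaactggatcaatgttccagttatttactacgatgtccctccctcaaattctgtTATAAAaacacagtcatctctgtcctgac
S100a8, chr3:90668821-90669070, plus strand: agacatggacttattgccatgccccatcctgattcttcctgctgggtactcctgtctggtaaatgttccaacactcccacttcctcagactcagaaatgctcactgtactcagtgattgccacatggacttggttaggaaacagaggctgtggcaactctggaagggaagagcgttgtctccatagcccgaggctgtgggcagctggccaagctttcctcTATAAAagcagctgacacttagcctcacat
S100a9, chr3:90695722-90695971, minus strand: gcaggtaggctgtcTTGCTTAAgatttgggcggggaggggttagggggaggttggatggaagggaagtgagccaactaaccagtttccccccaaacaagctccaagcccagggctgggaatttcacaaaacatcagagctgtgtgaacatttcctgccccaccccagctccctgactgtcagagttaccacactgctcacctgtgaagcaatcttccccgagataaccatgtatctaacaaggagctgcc
A TATA box match stood 27 to 22 bases before the start of Reg3g, 29 to 24 bases before that of Reg3b and 30 to 25 bases before that of S100a8. Reg3g had another match on the opposite strand, and S100a9 had none in this window. The last 20 bases before the start were identical in Reg3g and Reg3b. A C/EBP match was found in 4 of the 8 genes, S100a9, Lcn2 (TTGCTCAA), Ltf (TTGGGCAA) and Saa3 (TTATGCAA), and in 9.56% of the 32851 promoters of the same length. The TATA box was found in 3 of the 8 and in 12.4% of all, STAT in 1, Reg3b, and in 7.02% of all, and AP-1 and the E-box in 0 of the 8 and in 6.75% and 6.02% of all. A match is a description of these letters only.

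Values are log2 of the processed signal minus log2 of the array's 75th percentile, so 0 is the level of the 75th percentile and a step of 1 is a doubling, and the levels of different probes are not compared. The 75th percentile lay between 1131 and 1644 intensity units on the eye arrays and between 1408 and 2207 on the hypothalamus arrays, and 71.4% to 80.7% and 67.9% to 75.6% of the probes were well above background. Each tissue filled 4 slides of its own, on which mice of neighbouring numbers of both genotypes lay together; slide 1 of the eyes held 2 arrays and each of the others held 4. All 8 eye markers (Cryaa and Rpe65 among them) were higher in the eye and 7 of 8 hypothalamus markers (Avp and Pomc among them) were lower there, as the labels state. The Per3 probe, whose place relative to the replaced exon is not known, read -3.13 ± 0.388 in WT and -3.58 ± 0.520 in Per3-/- eyes (SD, n = 7 each; limma adjusted p = 0.99999) and -3.46 ± 0.150 and -3.97 ± 0.208 in the hypothalamus (n = 8 each; adjusted p = 0.0670). It was 0.51 log2 units lower in the Per3-/- hypothalamus, and it is no firm check of the genotype labels.

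In the eye, 6 of the 8 genes were well above background on every array, as were 67.8% of all probes. The exceptions were Reg3g, above background in 10 of 14 eyes, and Reg3b, above background in none. In the hypothalamus only S100a8 and S100a9 were above background on every array, as were 66.0% of all probes. A lower signal from a whole eye or a block can come from fewer cells of a type or from less RNA per cell, and these cannot be told apart here.

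Reg3g had the widest range over the eyes. Its WT values were -8.60 at the lowest, -6.55 at the median and -2.52 at the highest, and its Per3-/- values were -5.31, -2.27 and -0.78. WT mice 1, 3, 4 and 5 were not well above background, while WT mice 6, 7 and 8 read -3.72, -5.12 and -2.52 and overlapped with the Per3-/- eyes, all 7 of which were above background. From the lowest to the highest eye the signal spanned 7.82 log2 units, or 225-fold, where the lowest value is a background signal. Its SD over the 14 eyes was 2.34. The median SD of the 31432 probes well above background in at least 7 eyes was 0.197. The spread over the eyes is among the values that chose the gene, so it is a description only. The means were -5.80 ± 2.12 in WT and -2.94 ± 1.60 in Per3-/- eyes (SD, n = 7 each), a difference of 2.86 log2 units or 7.24-fold in which 4 of the WT values are background signals. With another background correction (normexp) the difference was 1.49. Reg3b, its neighbour on chromosome 6, lay between -8.77 and -7.82 in all 14 eyes, none well above background, and so gave no fold.

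S100a8 and S100a9, the subunits of calprotectin, differed among eyes of both genotypes. S100a8 read -4.45, -2.69 and -1.33 in WT eyes (lowest, median, highest) and -3.54, -2.29 and -1.36 in Per3-/- eyes. S100a9 read -1.05, 0.20 and 1.97 in WT and -0.16, 1.05 and 2.49 in Per3-/- eyes. The genotypes overlapped over most of their range for both genes, and WT mouse 1 had the lowest value of each among the 14 eyes. The difference of means, Per3-/- minus WT, was 0.44 for S100a8 (-2.82 ± 0.995 and -2.39 ± 0.759; 1.35-fold) and 0.78 for S100a9 (0.40 ± 0.995 and 1.18 ± 0.933; 1.72-fold), in each case less than the SD within a group. Without WT mouse 1 the difference was 0.17 for S100a8 and 0.54 for S100a9.

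Ltf, the iron-binding lactoferrin of neutrophil granules and tears, read -1.57, -0.79 and 1.08 in WT and -0.76, 0.28 and 1.66 in Per3-/- eyes (lowest, median, highest). WT mouse 8 and Per3-/- mouse 4 were the highest of their groups, and 5 of the 7 Per3-/- eyes lay above 6 of the 7 WT eyes. The means were -0.65 ± 0.880 and 0.22 ± 0.768, a difference of 0.87 log2 units or 1.83-fold. The other Ltf probe gave -1.76 ± 0.846 and -0.88 ± 0.737, a difference of 0.88 log2 units.

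Lcn2, a lipocalin that takes iron-loaded siderophores from bacteria, had the narrowest range of the genes detected in every eye, from -4.08 to -2.82. Its WT values were -4.08, -3.91 and -3.30 and its Per3-/- values -3.81, -3.72 and -2.82 (lowest, median, highest). WT mouse 4 lay apart from the other WT eyes, and Per3-/- mice 2, 3 and 4 lay above the other 4 Per3-/- eyes. The means were -3.85 ± 0.252 and -3.44 ± 0.431, a difference of 0.41 log2 units or 1.33-fold.

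Camp, which encodes the cathelicidin peptide, and Saa3 had nearly the same mean in both genotypes, though Saa3 did not without WT mouse 4. Camp read -4.00, -3.60 and -2.24 in WT and -3.83, -3.57 and -2.72 in Per3-/- eyes, with WT mouse 8 the highest. Saa3 read -6.04, -5.38 and -2.75 in WT and -5.76, -4.92 and -4.80 in Per3-/- eyes. The highest Saa3 value was that of WT mouse 4, and the next eye of either genotype read -4.80. The differences of means were -0.025 for Camp and -0.0050 for Saa3, and both were above 0 with normexp (0.18 and 0.22), which moved the median of all probes to 0.18 as well. For Saa3 the difference was 0.38 without WT mouse 4 and 0.45 between group medians.

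**Figure D1:**
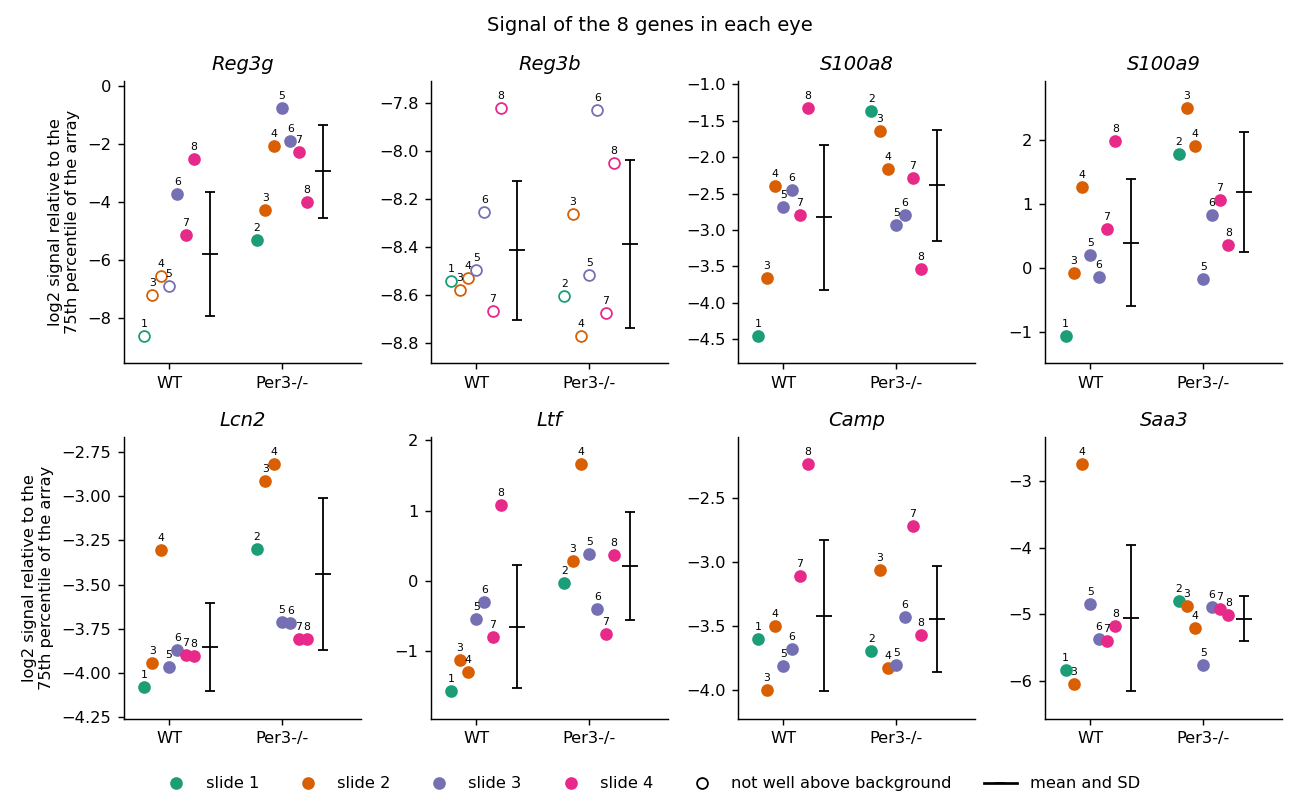
Each point is the log2 signal of 1 eye relative to the array's 75th percentile (vertical axis), numbered by mouse and coloured by slide, for WT (n = 7) and Per3-/- (n = 7), with the mean and SD beside it. Open points are not well above background: 4 WT eyes for Reg3g and all 14 eyes for Reg3b, and the genotypes overlap in every panel.

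No gene had Per3-/- values that all lay above, or all below, the WT values: 0 of 8, against 0.0704% of all 41174 probes. The median difference of the 8 genes was 0.43 log2 units, with 6 of 8 above 0, or 0.27 without WT mouse 1, and that of all probes was 0.0047. Over all probes, limma called 8 of 41174 (0.0194%) between the genotypes in the eye at an adjusted p under 0.05, all 8 lower in Per3-/-. The count was 9 with slide as a block and 1 with the mouse number as a block. With no block, the unadjusted p was under 0.05 for 743 probes.

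Within slides the eye differences were uneven. The Per3-/- mean lay above the WT mean on all 4 slides for Reg3g (3.29, 3.71, 3.96 and 0.68 log2 units on slides 1 to 4) and for Lcn2 (0.78, 0.76, 0.20 and 0.095), that is for 2 of 8 genes, against 5.58% of all probes. For Ltf the differences were 1.55, 2.19, 0.41 and -0.34, and for S100a9 they were 2.83, 1.60, 0.30 and -0.58. S100a8 gave 3.09, 1.13, -0.29 and -0.85, so its sign turned between slides. Camp stayed between -0.47 and 0.30, Saa3 between -0.65 and 1.03, and Reg3b, at background, between -0.12 and 0.21. The number of genes with the higher mean in Per3-/- was 6, 7, 6 and 3 of 8 on slides 1 to 4, and the median difference 1.29, 0.95, 0.20 and -0.23. Slide 1 held WT mouse 1 and Per3-/- mouse 2 alone, and slide 4 held WT mouse 8, the highest WT eye for 5 of the 7 detected genes. Over the 6 numbers that had an eye of both genotypes, with the number as a block, the median difference was 0.20 in place of 0.43 and S100a8 was at -0.0051 in place of 0.44.

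**Figure D2:**
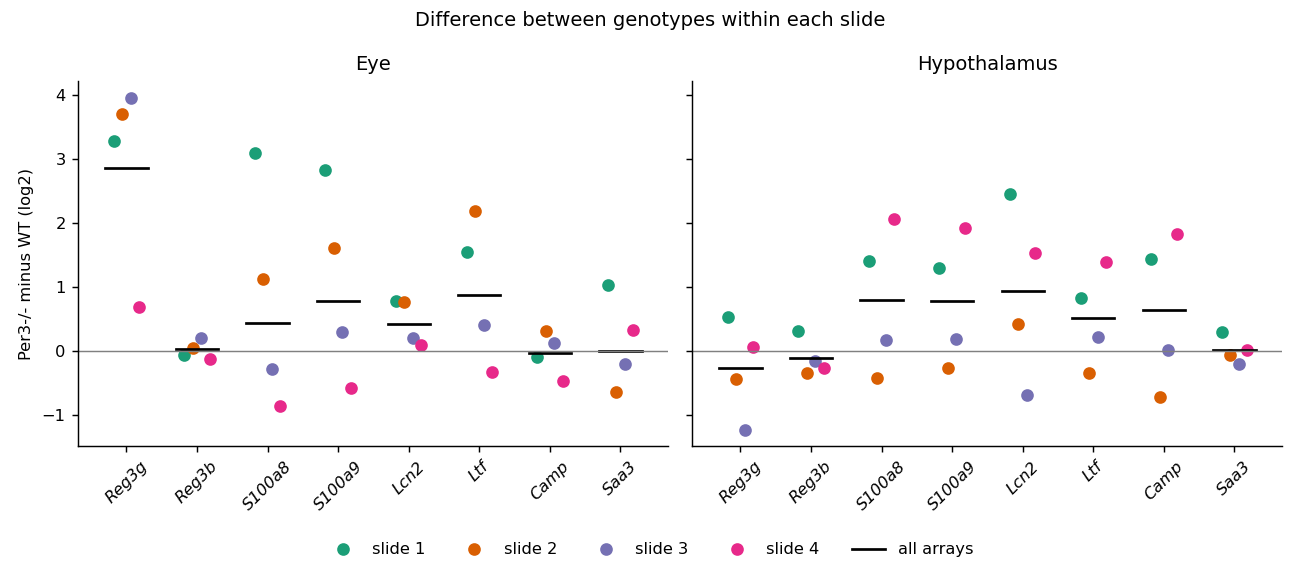
Each coloured point is the Per3-/- mean minus the WT mean (log2, vertical axis) of 1 gene within 1 slide, and the black bar is the difference over all arrays of the tissue. In the eye, Reg3g and Lcn2 lie above 0 on all 4 slides, while S100a8 runs from 3.09 to -0.85.

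The genes varied together over the 14 eyes in part. Each correlation is over arrays, which also share slides and a labelling procedure, and is a description. S100a8 and S100a9 had the highest Pearson r of the 28 pairs, 0.87 (Spearman 0.85; 0.89 within WT and 0.84 within Per3-/- eyes; 0.93 with slide means removed). S100a9 and Lcn2 followed with 0.75, and Reg3g and Ltf had 0.70. The pair of Reg3g and Ltf had r of 0.89 within WT but 0.091 within Per3-/- eyes, and S100a8 and Ltf had 0.83 and 0.0031. Only 3 of the 7 WT values of Reg3g were well above background, and WT mouse 8 was the highest WT eye for all of these genes. The difference between the genotypes in r was not tested. The median r over the 28 pairs was 0.38 (0.67 within WT, 0.032 within Per3-/-, 0.37 with slide means removed), against 0.011 over 1230096 pairs of other probes, every 20th one of those well above background in at least 7 eyes. Of the 28 pairs, 24 had an r above 0 and 7 an r above 0.5. Covariation over the eyes was part of how the 8 genes were chosen. Their distance from other pairs is therefore no support for shared variation. Reg3b entered 7 of the 28 pairs with background signals.

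By the highest r over the 14 eyes, the genes nearest to S100a8 were Cxcr2 (0.84), a chemokine receptor of neutrophils, Tbc1d20 (0.84), Cd79b (0.82), part of the B cell receptor, Ykt6 (0.81) and Cmtm3 (0.81). Among the genes nearest to Reg3g were Tff1 (0.86) and Muc5ac (0.84), which are products of mucous cells, Pilrb1 (0.85) and Adamts15 (0.84). Lcn2 was nearest to the cytokine genes Il1b (0.86) and Ltb (0.83), then Cstb (0.83), Pdlim7 (0.82) and Cd24a (0.80). Ltf was nearest to Phlda1 (0.92), Snorc (0.89), S100a11 (0.89), Melk (0.89) and Septin9 (0.88). The likeness is a rank over arrays and says nothing about shared control.

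**Figure D3:**
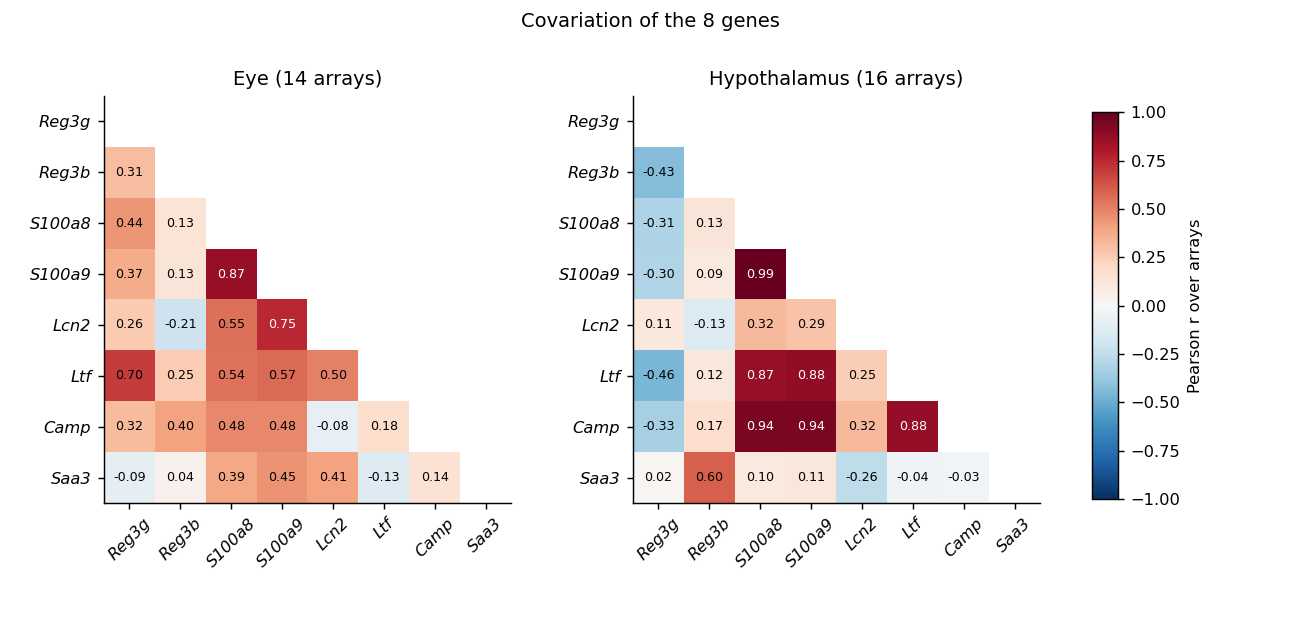
Each cell holds the Pearson r of 2 of the 8 genes over the 14 eye arrays (left) and the 16 hypothalamus arrays (right), coloured from -1 (blue) to 1 (red). S100a8 and S100a9 form the highest pair in both tissues (0.87 and 0.99), and Camp joins them in the hypothalamus (0.94) but less so in the eye (0.48).

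In the hypothalamus S100a8 and S100a9 were measured on all 16 arrays. S100a8 read -5.60, -4.37 and -3.03 in WT and -5.20, -3.66 and -1.08 in Per3-/- mice (lowest, median, highest), and S100a9 read -2.95, -2.16 and -0.99 in WT and -2.73, -1.38 and 0.996 in Per3-/- mice. The groups overlapped for both, and Per3-/- mouse 7 was the highest in each. The difference of means was 0.80 ± 0.519 (SE) for S100a8 and 0.78 ± 0.474 for S100a9, neither past the threshold (limma adjusted p = 0.991 for each, n = 8 per genotype).

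The other genes were near background there. Lcn2 was above background in 0 of 8 WT and 2 of 8 Per3-/- blocks, those of mouse 1 (-2.56) and mouse 7 (-4.50), while the 14 others read between -8.51 and -6.55. In the block of Per3-/- mouse 1 the summed log2 signal of the hypothalamus markers was 9.11, against 6.74 to 7.17 in the other blocks. Whether this bears on its Lcn2 value was not tested. Camp was above background in 2 of 8 of each genotype, from -8.65 to -3.87, and Ltf in 3 of 8 WT and 5 of 8 Per3-/- blocks, from -7.04 to -3.47, with Per3-/- mouse 7 the highest of both. Reg3g was above background in WT mouse 5 alone (-5.43), and Reg3b in WT mice 6 and 7 (-6.16 and -6.29). Saa3 was above background in 6 of 8 WT and 7 of 8 Per3-/- blocks and stayed between -6.11 and -5.35.

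None of the 8 genes passed the test between genotypes in the hypothalamus: the differences were 0.93 ± 0.738 for Lcn2 (0.34 without Per3-/- mouse 1), 0.64 ± 0.574 for Camp, 0.52 ± 0.397 for Ltf, -0.27 ± 0.532 for Reg3g, -0.12 ± 0.279 for Reg3b and 0.0092 ± 0.114 for Saa3 (SE, n = 8 per genotype; limma adjusted p = 0.991, and 0.997 for Saa3). Over all probes 17 of 41174 (0.0413%) passed, 3 higher and 14 lower in Per3-/-, and 1161 had an unadjusted p under 0.05. The median difference of the 8 genes was 0.58 (6 of 8 above 0), against -0.013 for all probes, but it was 0.017 with normexp, which moved the median of all probes to -0.080. Without Per3-/- mouse 7 it was 0.20, and the differences were 0.45 for S100a8, 0.45 for S100a9, 0.19 for Ltf and 0.21 for Camp. By slide, the number of genes with the higher mean in Per3-/- was 8, 1, 4 and 7 of 8, and S100a8 gave 1.40, -0.43, 0.17 and 2.06 log2 units.

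**Figure D4:**
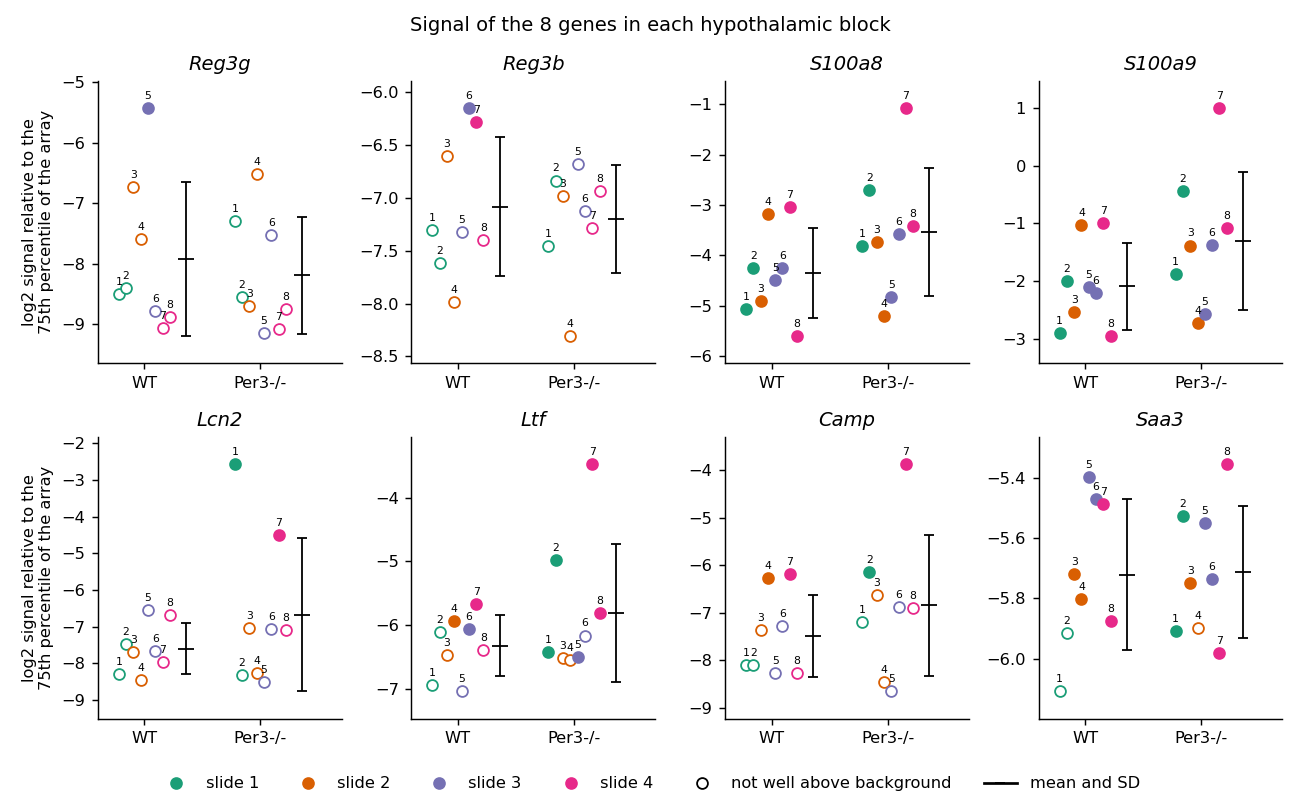
Each point is the log2 signal of 1 hypothalamic block relative to the array's 75th percentile (vertical axis), numbered by mouse and coloured by slide, for WT (n = 8) and Per3-/- (n = 8), with the mean and SD. Only S100a8 and S100a9 have no open point (not well above background), and Per3-/- mouse 7 is the highest for S100a8, S100a9, Ltf and Camp.

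Over the 16 hypothalamic arrays S100a8 and S100a9 had an r of 0.99, and Camp had 0.94 with each, although only 4 of its 16 values were above background. Ltf had 0.87 with S100a8, 0.88 with S100a9 and 0.88 with Camp. Without Per3-/- mouse 7 (n = 15) these were 0.98 for the calprotectin pair, 0.89 and 0.88 for Camp with S100a8 and S100a9, and 0.75, 0.77 and 0.72 for Ltf. Lcn2, above background on only 2 of the 16 arrays, had r between 0.25 and 0.32 to these 4 genes. Without Per3-/- mouse 7 its r lay between -0.21 and 0.034.

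Between the tissues of the same mouse the levels had little relation. Over the 14 mice with both tissues, r between eye and hypothalamus was 0.36 for Camp, 0.29 for S100a9 and 0.20 for S100a8, 0.12 for Reg3b, -0.011 for Saa3, -0.12 for Ltf, -0.24 for Lcn2 and -0.34 for Reg3g, against a median of 0.069 over all probes. For S100a8 and S100a9 alone was the gene above background in both tissues of all 14 mice.

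In WT mice most of the 8 genes had more signal in the eye than in the hypothalamus. The eye levels are among the values that chose the genes, so these differences are given with their errors and no p. The eye mean was the higher for 7 of 8. The median difference of the 8 was 2.30 log2 units, against 0.16 for all probes. For 3 of 8, Lcn2, Ltf and Camp, every WT eye lay above every WT hypothalamus, as it did for 29.2% of all probes. Each tissue was hybridised on slides of its own, so tissue and slide cannot be told apart.

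Ltf was well above background in all 7 WT eyes and in 3 of 8 WT hypothalami, and its means lay 5.67 ± 0.411 log2 units apart (SE; 51.1-fold). Its other probe, above background in 2 of 8 WT hypothalami, gave 5.50 log2 units. Most of the hypothalamic values behind both, and behind the 4.06 ± 0.463 log2 units of Camp (2 of 8 above background), are background signals. Lcn2 was above background in no WT hypothalamus. Set against a floor of low detected signals, its eye signal was 6.17-fold higher, which is not a strict lower bound. S100a9 and S100a8, measured on every array of both tissues, were higher in the eye by 2.49 ± 0.479 (5.61-fold) and 1.52 ± 0.489 log2 units (2.87-fold). Without WT mouse 8 the S100a8 difference was 1.09.

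Reg3g was above background in 3 of 7 WT eyes and 1 of 8 WT hypothalami, and its means lay 2.12 ± 0.747 log2 units apart, or 1.43 without WT mouse 8. Saa3 was higher in the eye by 0.66 ± 0.282, but by 0.26 without WT mouse 4 and by -0.087 with quantile normalization, which moved the median of all probes from 0.16 to -0.072. The other 7 genes kept their direction with it. Reg3b was above background in no WT eye and in 2 of 8 WT hypothalami, so most of its values in both tissues are background signals, and it gave no fold.

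Within Per3-/- mice, S100a8 and S100a9 were higher in the eye by 1.16 and 2.48 log2 units and Saa3, above background in 7 of 8 hypothalami, by 0.65. Reg3g was above background in all 7 Per3-/- eyes and in 0 of 8 hypothalami. Against the same kind of floor its eye signal was 12.3-fold higher. Ltf, Lcn2 and Camp, above background in 5, 2 and 2 of 8 hypothalami, gave 6.01, 3.27 and 3.39 log2 units, and Reg3b was above background in neither tissue. Whether the tissue difference itself differed between the genotypes was not tested.

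Genes of the same pathways were read in 4 lists, of which 103 genes had a probe and 4 had none. At an adjusted p under 0.05, 0 of 103 passed between genotypes in the eye and 0 of 103 in the hypothalamus (limma), with 11 (10.68%) and 10 (9.71%) at an unadjusted p under 0.05, against 1.80% and 2.82% of all probes. Of the 11 in the eye, 7 were other antimicrobial and acute-phase genes. The lists were chosen with earlier results of these data known. Their mean levels also moved with S100a8 over the eyes (r of 0.36 to 0.78), so these shares are a description. In the eye 77 of 103 had the higher mean in Per3-/-, with a median difference of 0.13, and in the hypothalamus 65, with a median of 0.051. Between the tissues of WT mice, 73 of 103 (70.9%) were called higher in the eye and 13 (12.6%) lower, against 42.1% and 33.6% of all probes.

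The genes named from each list had the largest differences in size among those well above background in at least 7 eyes. Of the ligands upstream, 22 cytokines and chemokines had a median eye difference of 0.18, with 19 above 0. The largest were those of the epithelial interleukins Il36a (0.90 ± 0.247, SE) and Il36g (0.72 ± 0.338) and of the neutrophil attractants Cxcl5 (0.62 ± 0.460) and Cxcl1 (0.55 ± 0.287). Il6, Il17a, Csf2, Csf3, Cxcl3 and Cxcl15 were at background in every eye. Of 20 receptors and transcription factors, 13 were above 0 with a median of 0.038, and the largest differences were those of Ager, a receptor for S100 proteins (-0.58 ± 0.352), Nfkbiz (0.31 ± 0.120), which takes part in the induction of Lcn2, and the Toll-like receptor pathway genes Myd88 (0.15 ± 0.065) and Tlr2 (0.12 ± 0.083).

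Of 31 neutrophil granule and receptor genes, 22 were above 0 in the eye, with a median of 0.17. Over the whole list the differences ran from -0.39 to 0.86. Among the detected genes, the largest were those of haptoglobin (Hp, 0.82 ± 0.485), the G-CSF receptor Csf3r (0.44 ± 0.242), Cxcr2 (0.43 ± 0.283) and the peptidoglycan-binding Pglyrp1 (0.33 ± 0.297). Of 30 other antimicrobial and acute-phase genes, 23 were above 0, with a median of 0.16. Over the whole list the differences ran from -0.92 to 1.16. Among the detected genes, the acute-phase orosomucoids Orm1 (1.16 ± 0.387, or 2.23-fold) and Orm2 (0.89 ± 0.367) were of the largest in size. Pigr, which carries immunoglobulin across epithelia, had a difference of -0.92 ± 0.452, the lowest of the list. The difference of S100a7a was 0.70 ± 0.232. Reg3a and Reg3d, relatives of Reg3g, and Bpi were at background in every eye. Each of these 16 differences had an adjusted p of 0.99999 (limma, n = 7 per genotype).

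Marker lists of the cell types a whole eye can hold moved with some of the 8 genes over the eyes, and their part in the differences was not tested. The mean of 7 neutrophil markers had an r of 0.82 with S100a8, 0.45 with Ltf and 0.41 with Reg3g, and lay between -6.35 and -4.42 in WT and between -6.05 and -4.96 in Per3-/- eyes. The summed signal of these 7, in log2, was -1.94 to -0.93 in WT and -1.78 to -1.09 in Per3-/- eyes, and 5 of the 7 had the higher mean in Per3-/-, none past the threshold. Of its defining genes, Mmp8 was above background in 1 of 14 eyes and Ngp in 3. The mean of 10 ocular surface epithelium markers had an r of 0.65 with Ltf and 0.075 with Reg3g, and lay between 3.74 and 4.56 in WT and 3.47 and 4.55 in Per3-/- eyes (summed signal 9.17 to 9.73 and 9.01 to 9.46), with 5 of 10 higher in Per3-/-.

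The mean of 7 goblet and mucous cell markers had an r of 0.77 with Reg3g and 0.61 with Ltf. It lay between -3.79 and -1.38 in WT and between -2.90 and -1.20 in Per3-/- eyes (summed signal 0.78 to 2.72 and 1.19 to 2.87), and 6 of the 7 had the higher mean in Per3-/-, Tff1 by 1.35 ± 0.691 (SE) and Muc5ac by 0.82 ± 0.463, none past the threshold. The mean of 8 macrophage and monocyte markers had an r of 0.81 with Reg3g, and all 8 had the higher mean in Per3-/- eyes (median 0.26), again with none past the threshold. Its range was -0.55 to -0.071 in WT and -0.32 to 0.19 in Per3-/- eyes (summed signal 5.33 to 5.98 and 5.67 to 6.14). The mean of 6 red blood cell markers had an r of 0.55 with S100a8, 0.53 with S100a9 and 0.63 with Camp over the eyes, and 0.18, 0.22 and 0.14 over the 16 hypothalami. All 6 had the higher mean in Per3-/- in both tissues (median 0.18 in the eye and 0.27 in the hypothalamus), none past the threshold. Only 4 of these 6 were above background in at least 7 eyes, and 4 in at least 8 hypothalami. Epb42 was at background in every eye. The mean of the list lay between -2.15 and -0.69 in WT and -2.01 and -0.65 in Per3-/- eyes (summed signal 5.35 to 6.72 and 5.21 to 7.05). The lists for B and plasma cells, lacrimal and Harderian gland and skin had an r between 0.13 and 0.25 with S100a8 and between 0.26 and 0.41 with Reg3g. Among all marker genes only Car6, a secreted carbonic anhydrase of the gland list, passed between genotypes in the eye. It was lower in Per3-/- by 1.02 ± 0.0992 (SE, limma adjusted p = 0.000924). The call was kept with slide as a block (limma adjusted p = 0.00129). It was lost with the mouse number as a block (limma adjusted p = 0.224), where the gene was lower by 1.02 ± 0.0996.

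**Figure D5:**
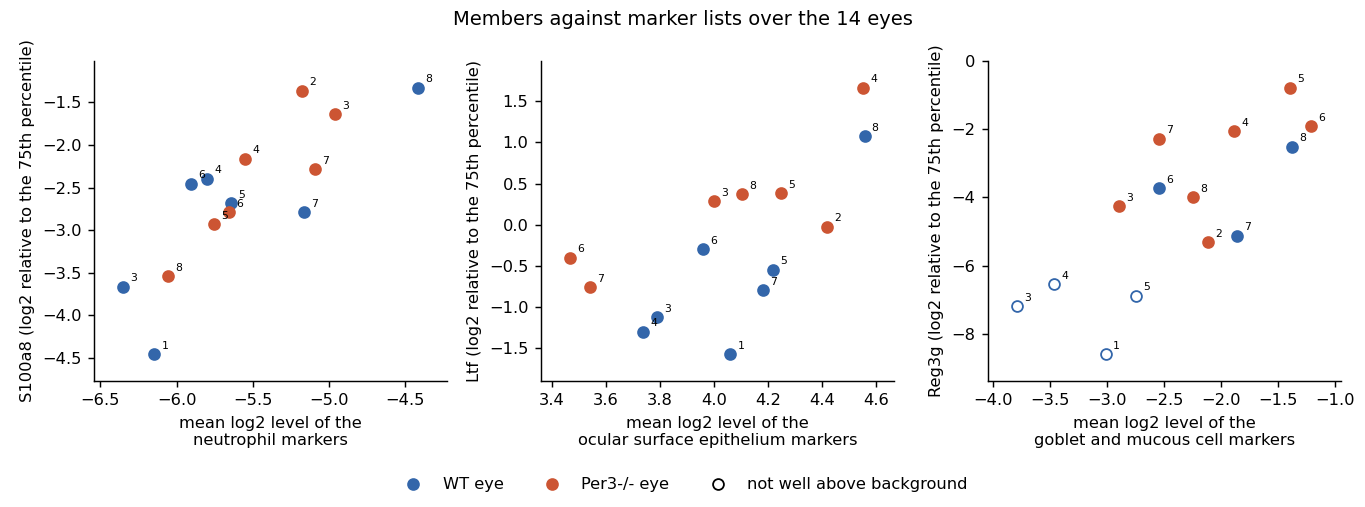
Each point is 1 eye, numbered by mouse, with the mean log2 level of a marker list on the horizontal axis and the log2 level of a gene on the vertical axis (both relative to the array's 75th percentile): S100a8 against neutrophil, Ltf against ocular surface epithelium and Reg3g against goblet and mucous cell markers. The r over the 14 eyes is 0.82, 0.65 and 0.77, and the open Reg3g points are not well above background.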

How the data were processed

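Total RNA of whole eyes and hypothalamic blocks was labelled with Cy3 and hybridised to 60-base Agilent arrays, 1 per sample with no pooling. Spot intensity was extracted by the authors with Feature Extraction 10.7.1.1, and per the file headers the deposited intensity has the background subtracted and spatial trends removed, with no scaling between arrays. A table of log2 values was deposited too, which the values themselves show to be the same signals relative to the 75th percentile and centred per probe within a tissue.

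For the 41174 probes other than controls, intensities were scaled to the array's 75th percentile and taken to log2. Spots with outlier or uneven marks were dropped (91 or fewer per array). No spot of the 8 genes was saturated. Genes were named through the current RefSeq accession (27027 probes), symbol (5011) or synonym (796), and otherwise by the array files (8340). Ly6g, Defb4, Lif, Cebpe, Scgb1b24 and Lcn11 of the gene lists had no matching probe.

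Genotypes were compared within a tissue, and tissues over all 30 arrays in 4 groups treating the mouse as random (block correlation 0.0590), by limma 3.58.1 in R 4.3.3 two-sided, with p-values adjusted over all probes (Benjamini-Hochberg). The p of the tissue comparison is not printed for the 8 genes, since eye values chose them. SD is over mice and SE is that of the model. The number of arrays limits the precision. Where no array of a group had a probe well above background, the fold sets the mean of the brighter group against a floor. The floor is the mean, per array, of the higher of the probe's own value and the lowest signal among probes well above background. It is not a strict bound, since a probe without that mark can read above one with it. In the hypothalamus of WT mouse 8, Ltf read -6.38 without the mark and its other probe -6.53 with it. Simulated data with known changes were used to check the model. Descriptions used Python 3.11.15 with numpy 2.4.6 and pandas 2.3.3.

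Same-numbered WT and Per3-/- eyes deviated together (r of their deviations from 0.11 to 0.63 over 6 pairs), but mice on the same slide with other numbers gave 0.11 to 0.48. Whether this likeness goes with the number or with the slide was not tested. The main fit in the eye used no block, and the number was a block only in an alternative fit. Same-numbered hypothalami gave -0.029 to 0.32 and were not paired. The numbers are those in the sample titles. Arrays of a group correlated at 0.976 to 0.994 and none was a duplicate.

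The 8 genes and the lists were chosen with earlier results of these data known. The named genes were the 8, by the probe of highest mean eye signal, any list gene that passed between genotypes, the 4 of each list with the largest eye difference and the 5 nearest to S100a8, Reg3g, Ltf and Lcn2, among probes well above background in at least 7 eyes. Of these, 1 is not reported here. Alternatives were quantile normalization, normexp (offset 50), a filter on dim probes, slide or number as a block, the authors' values, group medians, the methods' t-test and leaving out each mouse.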

Additional observations from a re-analysis of the deposited data

Results flagged for a closer look

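In 32 sets of values, those of the 8 genes in each group, 3 had a mouse far from the rest of its group by Dixon's criterion, which chance alone meets in about 1 in 20 sets. WT mouse 4 had the highest WT eye value of Lcn2, -3.30 against -3.87 for the nearest, a gap of 0.734 of the range. The same mouse had the highest eye value of Saa3, -2.75 against -4.85 for the nearest, a gap of 0.639 of the range, and without it the WT tissue difference of Saa3 was 0.26. The lowest Per3-/- eye value of Saa3 was that of mouse 5, -5.76 against -5.21, a gap of 0.571 of the range.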

How the results depend on the processing

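Of 592 values recomputed under other settings, 566 were labelled unchanged. The rule differed between counts of probes, correlations and gene differences. Gene differences had to keep their direction and side of the threshold, or move by less than the spread between mice. For the median genotype difference of the 8 genes, that spread (eye 0.56, hypothalamus 0.65) exceeded the median itself (0.43 and 0.58). A median that vanished would thus be labelled unchanged. The hypothalamic one was, at 0.017 with normexp, so the label does not show that these medians are stable. Probes called between genotypes in the eye numbered 8, or 9 with slide as a block, but 4 with normexp and 1 with the replicate number as a block. They numbered 6 to 8 with each mouse left out. In the hypothalamus 17 were called, but 10 with normexp and 5 with the replicate block, where the numbers do not pair the samples, and 12 to 16 with each mouse left out. None of the 8 genes was called between genotypes in the hypothalamus with or without the replicate block. The call of Car6 in the eye was lost with it (limma adjusted p = 0.224) but kept with slide as a block (limma adjusted p = 0.00129). Without the mouse block the WT tissue calls over all probes numbered 30934 in place of 31145. The median tissue difference of the 8 genes was 2.30 in WT and 2.87 in Per3-/- mice, or 1.77 to 2.59 with each WT mouse left out. With normexp the hypothalamic differences of Camp and Saa3 turned to -0.0085 and -0.20, and the eye difference of Reg3b, at background, was 0.40. With quantile normalization the tissue difference of Saa3 turned to -0.087. With each mouse left out, the hypothalamic differences crossed 0 for Reg3g (-0.51 to 0.086), Reg3b (-0.24 to 0.041) and Saa3 (-0.046 to 0.056). The eye difference of Reg3g stayed between 2.39 and 3.40 with each mouse left out and was 4.28 between group medians. The cause of these changes was not tested. Signal over background limits Reg3g in WT eyes, Reg3b in all eyes and Lcn2, Camp, Reg3g and Reg3b in most hypothalami.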
